A study of Mus musculus with 6 samples.

Results

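The members described here are genes of the tumour necrosis factor (TNF) superfamily, of its receptors, and of the adaptors that receptors recruit inside the cell. They were picked by gene symbol: ligands named Tnfsf with a number, receptors named Tnfrsf with a number, Traf1 to Traf7, and Tnf, Lta, Ltb, Ltbr, Fas, Fasl, Tradd and Traip. The annotation GENCODE M21 on the mouse assembly GRCm38 holds 46 protein-coding genes with such symbols, and 39 of them stand among the 13912 genes of the deposited table. These 39 are 12 of 15 ligands, 18 of 22 receptors and all 9 intracellular members. The other 7 (Fasl, Lta, Tnfsf4, Tnfrsf8, Tnfrsf13c, Tnfrsf17 and Tnfrsf25) and the antisense gene Tnfsf13os were not analysed here.

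All 6 libraries are labelled as cells of 4T1-Luc2-RFP, a mammary carcinoma line of BALB/c mice marked with luciferase and a red fluorescent protein. The cultured group is 3 libraries of the line grown in a dish and not injected. The tumour group is 3 libraries of cells isolated by fluorescence-activated cell sorting (FACS) from MIND tumours of the mammary gland, and the title of the series describes the model as intraductal. Titles of all 3 tumour libraries carry the word Right, which they do not explain. The labels name no age, no time after injection and no treatment, and do not say whether libraries of a group came from separate cultures or animals, and p-values therefore reflect the scatter among the libraries sequenced, possibly no more than technical scatter. The labels give both groups as the same line, and only the tumour cells as sorted. Markers of host cells differed between the groups, and their levels are given below.

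TNF superfamily ligands are mostly trimeric proteins of the cell membrane, and several are cut from it and act in solution. Their receptors fall into those with a death domain, which recruit adaptors such as TRADD or FADD and can start caspase activation, and those that bind TNF receptor-associated factors (TRAFs) directly and lead to NF-kB and stress kinase signalling. Decoy receptors bind ligand without signalling. In mammary tissue the ligand RANKL and its receptor RANK are known for their part in the growth of the gland, and in tumours macrophages and lymphocytes are well known sources of the ligands.

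The libraries held 35448588 to 41469090 reads in the genes of the table, and a level is given as log2 CPM, the log2 of reads scaled to library size (CPM) with an offset of 0.5 reads. Summed levels of macrophage and monocyte markers ran from 28.1 to 38.7 CPM in culture and from 7886 to 11505 CPM in the tumour libraries, and 14 of 14 such markers were higher there. Sums of neutrophil markers (9 of 9 higher) were 85.6 to 100.6 CPM in culture and 5293, 1612 and 2835 CPM in tumour libraries 1, 2 and 3. Mmp9, which the cultured line also expressed at a mean of 91.5 CPM, made up most of the cultured sums, and without it they were 0.133 to 0.610 CPM in culture and 4002, 499.6 and 1970.1 CPM in the tumour libraries. Dendritic cell markers (8 of 10 higher) went from 10.1 to 26.9 CPM to 4746 to 6728 CPM. Cd74, H2-Aa and H2-Ab1 are class II genes that macrophages also express. Without them the sums were 7.32 to 9.01 CPM in culture and 274 to 434 CPM in the tumour libraries. Itgax, at a tumour mean of 327 CPM, made up most of the remaining tumour sums. Batf3 and Zbtb46, at cultured means of 3.66 and 4.24 CPM, made up most of the cultured ones and did not pass. The defining markers Flt3 and Xcr1 averaged 0.622 and 0.661 CPM in the tumour libraries. Fibroblast markers (12 of 12) went from 23.7 to 51.7 CPM to 6828 to 8799 CPM, and endothelial markers (9 of 10) from 10.8 to 15.8 CPM to 116 to 170 CPM. Single genes carried these cultured sums: Pdgfra, at a cultured mean of 31.8 CPM, which rose by 1.15, and Egfl7, at 10.2 CPM, which did not pass. Cd14, Cd68 and Mrc1, at cultured means of 14.7, 12.1 and 5.44 CPM, made up most of the cultured macrophage sums. T and NK cell markers (5 of 6 tested, of 14 listed) went from 3.88 to 8.82 CPM to 102 to 113 CPM. Thy1, which also stands in the fibroblast list, gave 98.0 CPM of the tumour mean. Without it the sums were 3.88 to 8.77 CPM in culture and 9.57 to 10.96 CPM in the tumour libraries. Lck, which did not pass, gave all of these cultured sums, with means of 6.93 CPM in culture and 3.66 CPM in the tumour libraries. Cd4, Cd8a, Gzmb and Klrb1c had 0 cultured reads and tumour means of 3.03, 0.668, 0.723 and 2.24 CPM. Of the 7 listed B and plasma cell markers 1 was tested and was higher, at 0.0221 CPM or less in culture and 0.814 to 1.48 CPM in the tumour libraries. In culture the markers Retnlg, Flt3, Cd209a, Cd4, Cd8a, Gzmb, Klrb1c, Dpt, Emcn and Cldn5 had 0 reads. Carcinoma and mammary epithelial markers summed to 3224 to 4067 CPM in culture and to 3155 to 3729 CPM in the tumour libraries, with 3 of 19 higher and 7 lower, and were thus detected in all 6 libraries. The smallest total of any gene in the table was 61 reads, and many host markers had fewer in culture. These were 10 of 14 macrophage, 8 of 9 neutrophil and 7 of 10 dendritic cell markers. So were 10 of 12 fibroblast, 8 of 10 endothelial and 5 of 6 T and NK cell markers. They stand in the table through their tumour reads, which favours a rise, so their calls are descriptions. Of all genes 29.5% were called higher. The markers of host cells differed between the same groups as every result below, and their part in those results was not tested. Fewer cells of a type and less RNA per cell cannot be told apart in such bulk samples.

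Compared with culture, ligand genes were nearly all higher in the tumour libraries, and most receptors were higher as well. Of those higher, 8 ligands and 5 receptors had under 61 reads in culture, so a rise was favoured for them. Among intracellular members 5 were called lower, but 1 was without cultured library 1, tumour library 1 or tumour library 3. By limma with Benjamini-Hochberg adjustment at 0.05 over all genes, 23 of 39 members rose and 8 fell, where 29.5% of all 13912 genes rose, 18.8% fell and 48.2% were called in either direction. By role, 11 ligands rose and 1 fell, 11 receptors rose and 2 fell, and 1 intracellular member rose and 5 fell. The median change (tumour minus cultured, log2) of the intracellular members was -0.60, against 0.08 for all genes. The 3 tumour values all lay above the 3 cultured values in 24 members and below them in 7, against 34.6% and 25.2% of all genes (59.8% in either direction). Each library centred on its median, which takes 0.22 off every change, gave the same 23 and 8 members called. Quantile normalization, which moved the median of all genes from 0.08 to -0.32, gave 19 higher and 10 lower, and scaling to the epithelial markers, which takes 0.29 off every change, gave 22 and 8. The count of fallen members was 4 without cultured library 1, tumour library 1 or tumour library 3, and 5 without tumour library 2.

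The counts of risen members were in part set by a filter. The smallest total of any gene in the table was 61 reads over the 6 libraries, and 13 members (8 ligands and 5 receptors) had fewer reads than that in culture, so they stand in the table through their tumour reads, which favours a rise. Of all genes 2216 (15.9%) had as few cultured reads, of which 1886 rose, 5 fell and 325 did not pass. The 8 ligands are Ltb, Tnfsf8, Tnfsf10, Tnfsf11, Tnfsf12, Tnfsf13b, Tnfsf14 and Tnfsf18. The 5 receptors are Tnfrsf11b, Tnfrsf13b, Tnfrsf14, Tnfrsf18 and Tnfrsf19. Fold changes and calls of these 13 members are therefore descriptions. Among the 26 members with at least that many cultured reads 10 rose and 8 fell, against 18.9% and 22.3% of such genes, and the median change was 0.44, where it was 2.34 over all 39. That restriction takes out only genes that are low in culture, so these shares follow in part from it too.

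**Figure D1:**
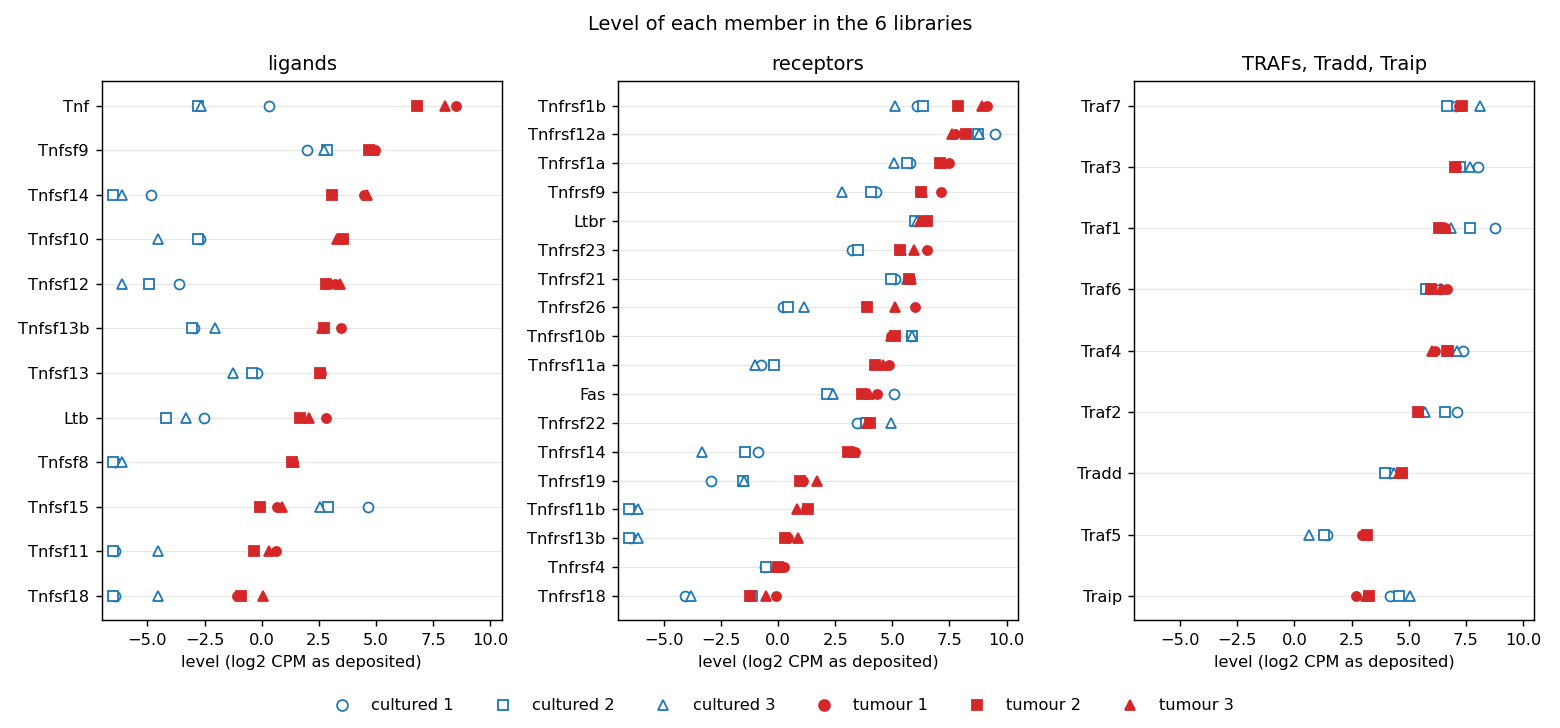
Level of each of the 39 members (x axis, log2 CPM as deposited) in cultured libraries 1 to 3 (open blue) and tumour libraries 1 to 3 (filled red), in 3 panels by role, ordered by tumour mean. Among ligands all but Tnfsf15 have every red point to the right of every blue point, while several intracellular members have red points at the left edge of the blue ones.

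Promoter sequence was available in the RefSeq table (assembly GRCm38.p6) for 32 of the 39 members, in 35 windows. The 250 bases before each start were searched on both strands for a kB word of the kind bound by NF-kB (GGG, any 2 bases, then TTTCC) and an AP-1 word, TGANTCA, and the 2 words do not overlap each other in the matches found. The kB word was present in windows of 3 of the 32 members (Ltb, Tnfrsf9 and Traf3), where it is present in 1.65% of all 27025 genes with a window and in 1.41% of all windows. The AP-1 word was present for 5 (Fas, Tnfrsf9, Tnfsf13, Tnfsf13b and Tnfsf14), against 7.82% of all genes. Tnf had neither word in this window. The windows of Ltb and Traf3 are shown because they hold the kB word next to genes called in opposite directions, Ltb higher and Traf3 lower in the tumour libraries. Ltb had 12 cultured reads and stands in the table through its tumour reads. The call of Traf3 held in 1 of the 6 fits with a library left out. Bases that the annotation places in an exon are left out, and capitals mark the kB word. The stretch of Ltb is chr17:35194257-35194438 and that of Traf3 is chr12:111166120-111166369, both on the plus strand, 5′ to 3′.
Ltb: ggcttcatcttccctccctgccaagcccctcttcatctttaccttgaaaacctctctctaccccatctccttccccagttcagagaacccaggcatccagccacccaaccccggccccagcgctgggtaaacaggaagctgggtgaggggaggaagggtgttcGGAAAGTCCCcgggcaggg
Traf3: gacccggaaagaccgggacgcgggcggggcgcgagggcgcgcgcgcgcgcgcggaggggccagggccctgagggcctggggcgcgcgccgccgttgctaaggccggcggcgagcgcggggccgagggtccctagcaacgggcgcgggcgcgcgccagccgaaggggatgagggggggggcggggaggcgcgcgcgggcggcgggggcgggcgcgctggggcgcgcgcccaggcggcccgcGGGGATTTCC
In Ltb the word lies on the minus strand (GGGACTTTCC read from that strand) and begins 87 bases before the RefSeq start. In Traf3 it begins 10 bases before the start. In Tnfrsf9 the word GGGGATTTCC was found 43 bases before the start of the second of 2 windows. That match, and the AP-1 matches of Tnfrsf9, Tnfsf13 and Tnfsf13b, lie in bases that the annotation places in an exon. A match is a run of letters and does not show that a factor binds there.

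Tnf, the founding ligand and a main product of activated macrophages, had the highest tumour level of the ligands. The gene spans positions 35199381 to 35202007 of chromosome 17. Its levels were 0.30, -2.80 and -2.66 log2 CPM in cultured libraries 1, 2 and 3 (52, 6 and 5 reads) and 8.48, 6.79 and 8.01 in tumour libraries 1, 2 and 3 (13176, 4486 and 9766 reads). The groups were far apart, cultured library 1 stood above the other cultured libraries, and tumour library 2 was the lowest of the tumour libraries. The change was 9.48 (SE 0.85, limma adjusted p = 5.66e-05), and with 1 library left out it lay between 8.94 and 10.49.

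Tnfsf14 encodes LIGHT, a ligand of the herpesvirus entry mediator and of the lymphotoxin beta receptor. It had 1, 0 and 0 reads in culture and 810, 346 and 923 reads in the tumour libraries, or 22.0, 8.51 and 24.3 CPM. Tumour library 2 was again the lowest. The ratio of CPM over the 1 cultured read was 2211 (95% counting interval 396 to 87362), where the interval covers counting error only. Ltb encodes lymphotoxin beta, the membrane anchor of the lymphotoxin heterotrimer, and its start lies 4942 bases from that of Tnf. It had 7, 2 and 3 reads in culture against 260, 129 and 158 in the tumour libraries, a change of 5.52. Over all cultured libraries Tnfsf14 thus had 1 read and Ltb 12.

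Tnfsf12, which encodes TWEAK, had 3, 1 and 0 reads in culture against 343, 285 and 407 in the tumour libraries. Its change was 8.03. Tnfsf13, which encodes APRIL, a survival factor of B and plasma cells, starts 3404 bases away. It had 36, 33 and 14 cultured reads against 221, 239 and 220, a change of 3.20. The tumour libraries were close together for both genes and above every cultured library. Both share exons with an annotated gene that reads through the pair, Tnfsfm13, over 48.3% of the exon length of Tnfsf12 and 60.0% of that of Tnfsf13, where a second, antisense gene also lies. Their reads are therefore uncertain, and so is the split between them.

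Tnfsf10 encodes TRAIL, a ligand of death receptors. It had 6, 6 and 1 reads in culture against 437, 481 and 369 in the tumour libraries, with a change of 6.82. Unlike Tnf, tumour library 2 was not low for this gene. Tnfsf13b encodes BAFF, the other B cell survival factor, and had 5, 5 and 8 cultured reads and 408, 269 and 236 tumour reads, with a change of 5.62. Tnfsf8, which encodes the CD30 ligand, had 0 reads in all cultured libraries and 95, 102 and 100 in the tumour libraries. Against a floor of 3 reads over the cultured group it was at least 105-fold higher. Its tumour level was 2.57 ± 0.0638 CPM (SD, n = 3), low but very even.

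Tnfsf11 encodes RANKL. It had 1 cultured read, in library 3, and 57, 32 and 47 reads in the tumour libraries, a ratio of 145 (95% counting interval 25.5 to 5754). Its tumour level was only 1.19 ± 0.382 CPM (SD, n = 3). Tnfsf18, which encodes the GITR ligand, was lower still, with 1 cultured read, 17, 21 and 39 tumour reads and a ratio of 81.9 (14.3 to 3276). After quantile normalization the change of Tnfsf18 was 0.09 (limma adjusted p = 0.907), and the cause was not tested. Tnfsf9 encodes the 4-1BB ligand and was the ligand with the highest mean log2 CPM over all 6 libraries. Its levels were 1.97, 2.84 and 2.72 log2 CPM in culture against 4.97, 4.68 and 4.90 in the tumour libraries. It was thus expressed in both groups, and rose by 2.34 (SE 0.27, limma adjusted p = 0.000264). Reads of Tnfsf9 are uncertain over 14.9% of its exon length, where the antisense gene Gm11110 overlaps, because the sources used here do not say whether counting used strand.

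Tnfsf15 was the only ligand of the 12 that fell. It encodes TL1A, a ligand of death receptor 3, and lies on chromosome 4 from 63727084 to 63745113. Its levels were 4.66, 2.92 and 2.54 log2 CPM in culture against 0.69, -0.08 and 0.89 in the tumour libraries. Every tumour value was below every cultured value, and cultured library 1 was the highest. The change was -2.87 (SE 0.57, limma adjusted p = 0.00445), and it was -2.23 without cultured library 1 and still called. Its nearest family neighbour is Tnfsf8, whose start is 104224 bases away and which moved the other way.

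**Figure D2:**
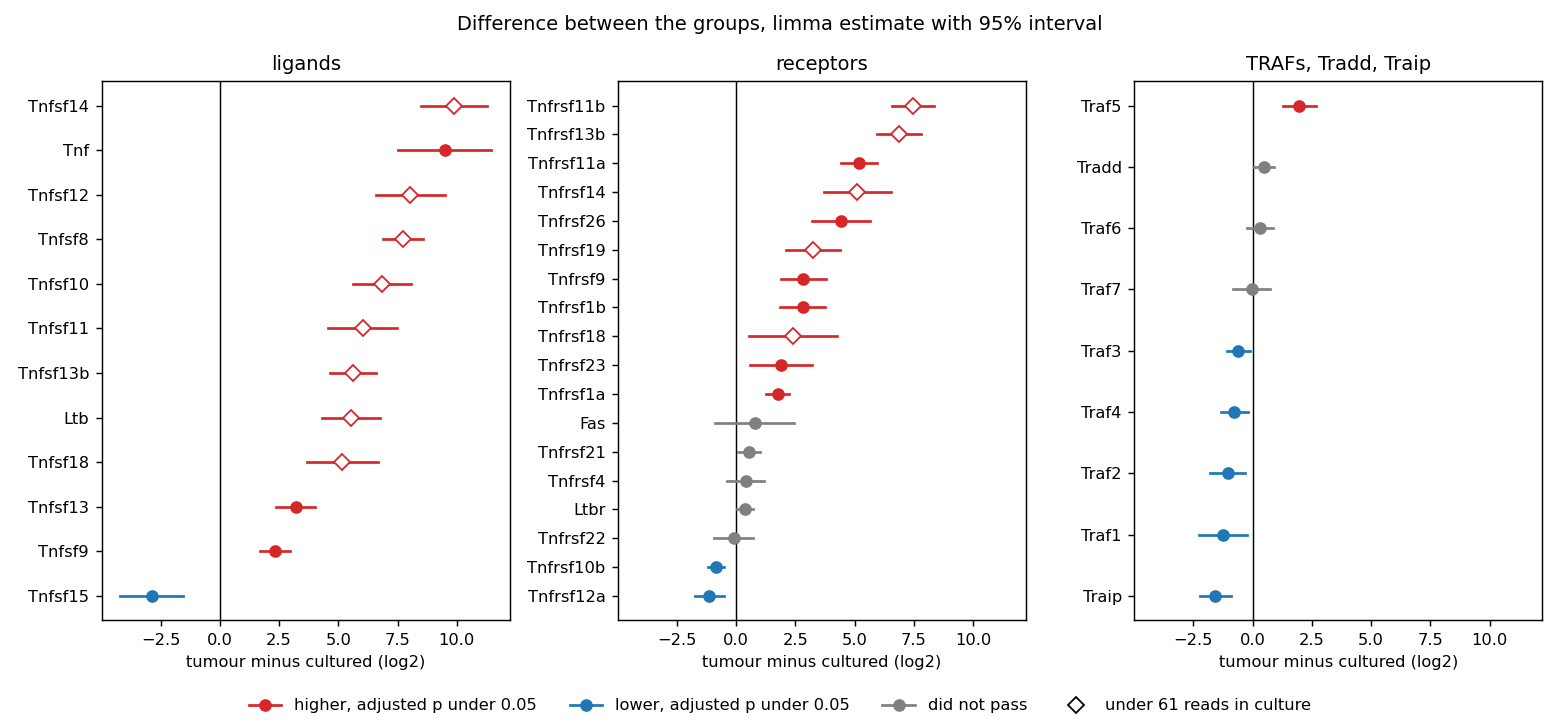
Difference between tumour and cultured means of each member (x axis, log2) with limma's 95% interval as a line, red for called higher, blue for called lower and grey for not passed, with open diamonds for members with under 61 reads in culture. Ligand estimates run from -2.87 for Tnfsf15 to 9.87 for Tnfsf14, and intracellular ones from -1.57 for Traip to 1.97 for Traf5.

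Both TNF receptors rose. Tnfrsf1a encodes TNFR1, which has a death domain, and lies on chromosome 6 from 125349362 to 125362484. It stood at 5.76, 5.62 and 5.08 log2 CPM in culture against 7.46, 7.09 and 7.17 in the tumour libraries. Its change was 1.75 (SE 0.21, limma adjusted p = 0.000314). Tnfrsf1b encodes TNFR2, which lacks a death domain and binds TRAF2. It stood at 6.09, 6.32 and 5.13 log2 CPM in culture against 9.15, 7.87 and 8.91 in the tumour libraries, with a change of 2.80 (SE 0.41, limma adjusted p = 0.000896). For both, cultured library 3 was the lowest and tumour library 2 the lowest of its group, and no values overlapped. Ltbr, the lymphotoxin beta receptor gene, starts 42791 bases from Tnfrsf1a and was nearly level: 65.0, 62.7 and 67.0 CPM in culture against 86.4, 92.2 and 73.7 CPM in the tumour libraries. Its groups did not overlap, but its change of 0.37 (95% interval 0.03 to 0.70) did not pass after adjustment over all genes (limma adjusted p = 0.0686). Without cultured library 3 it was 0.39 (limma adjusted p = 0.0469).

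Tnfrsf9 encodes 4-1BB (CD137), a costimulatory receptor of lymphocytes. It had 829, 753 and 245 reads in culture, so it was expressed there, and 5091, 3113 and 2966 in the tumour libraries. It rose by 2.83 (SE 0.41, limma adjusted p = 0.000885), with tumour library 1 the highest. Its ligand gene Tnfsf9, given above, rose as well. Tnfrsf14, the gene of the herpesvirus entry mediator, had 23, 16 and 3 cultured reads and 378, 334 and 375 tumour reads, with a change of 5.11 (SE 0.61). Tnfrsf11a, which encodes RANK, had 25, 40 and 17 cultured reads and 1062, 764 and 915 tumour reads, with a change of 5.19 (SE 0.32). Tnfrsf11b encodes osteoprotegerin, the soluble decoy that binds RANKL. It had 0 reads in culture against 85, 101 and 67 in the tumour libraries, at least 89.7-fold higher against the floor of 3 reads over the group. All 3 genes of the RANKL system were higher in the tumour libraries, with CPM means of 1.19 for the ligand, 23.9 for the receptor and 2.19 for the decoy. Tnfsf11 and Tnfrsf11b stand in the table through their tumour reads, so a rise was favoured for both. Tnfrsf11a, with 82 cultured reads, does not.

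Tnfrsf13b encodes TACI, a receptor of BAFF and APRIL on B cells. It had 0 cultured reads and 49, 49 and 69 tumour reads and was at least 59.2-fold higher. The genes of the other receptors for these ligands, Tnfrsf13c and Tnfrsf17, were not analysed here. Tnfrsf19, which encodes TROY, had 5, 15 and 12 cultured reads and 79, 78 and 122 tumour reads, a change of 3.24. After quantile normalization the change of Tnfrsf19 was 0.52 (limma adjusted p = 0.333). Tnfrsf18 encodes GITR, and its 2, 20 and 2 cultured reads overlapped with its 34, 17 and 26 tumour reads. Its change of 2.40 (SE 0.80, limma adjusted p = 0.0392) was called in 1 of the 6 fits with a library left out, that without cultured library 2, and became -1.89 after quantile normalization (limma adjusted p = 0.0258). An antisense gene overlaps 27.2% of its exon length. Its neighbour Tnfrsf4, which encodes OX40 and starts 12321 bases away, had 28, 31 and 35 cultured reads and 43, 40 and 35 tumour reads. The change of Tnfrsf4 was 0.41 (95% interval -0.38 to 1.19) and did not pass, although after quantile normalization it was -2.71 (limma adjusted p = 0.000435).

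A mouse cluster of decoy-type receptors on chromosome 7 gave unequal values. Tnfrsf26, Tnfrsf22 and Tnfrsf23 lie there between 143607659 and 143685872, and the products of Tnfrsf22 and Tnfrsf23 are known to bind TRAIL without a death domain. Tnfrsf26 had 1.15, 1.33 and 2.18 CPM in culture against 63.1, 14.8 and 35.0 CPM in the tumour libraries. It rose by 4.41 (SE 0.53, limma adjusted p = 0.000305), and tumour library 2 was the lowest of its group. Tnfrsf23 had 9.29, 11.4 and 41.5 CPM in culture against 91.1, 40.6 and 61.1 CPM in the tumour libraries. Cultured library 3 overlapped with tumour library 2, and the change of 1.89 (SE 0.57, limma adjusted p = 0.0266) was called in 2 of the 6 fits with a library left out and was lost when scaled to epithelial markers (limma adjusted p = 0.0514). Tnfrsf22 had 10.9, 14.5 and 30.4 CPM in culture against 15.9, 16.1 and 14.8 CPM in the tumour libraries. Its change was -0.12 (95% interval -0.96 to 0.73) and did not pass. Tnfrsf22 and Tnfrsf23 are near copies in part: 27.4% of the words of 50 bases in the transcripts of Tnfrsf22, and 19.3% of those of Tnfrsf23, also occur in another gene, mostly in each other, so their reads cannot be assigned with certainty.

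The other receptors with a death domain gave mixed values. Tnfrsf10b encodes the mouse TRAIL death receptor DR5 and lies on chromosome 14 from 69767472 to 69784411. It stood at 57.1, 57.3 and 58.2 CPM in culture against 30.7, 34.4 and 30.6 CPM in the tumour libraries. The groups were tight and apart, with a change of -0.85 (SE 0.14, limma adjusted p = 0.00164). Fas, the receptor of the Fas ligand, stood at 33.3, 4.37 and 5.34 CPM in culture against 20.3, 12.6 and 15.6 CPM in the tumour libraries. Cultured library 1 lay above every tumour library and the others below, so the groups overlapped and the change of 0.78 (SE 0.71, limma adjusted p = 0.398) did not pass. Without cultured library 1 it was 1.71 (limma adjusted p = 0.0037). Tnfrsf21, which encodes death receptor 6, had a change of 0.54 (95% interval 0.07 to 1.01, limma adjusted p = 0.0595). Its levels were 34.2, 30.9 and 49.6 CPM in culture against 54.2, 52.3 and 56.6 CPM in the tumour libraries. Without cultured library 3 that change was 0.74 (limma adjusted p = 0.0025).

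Tnfrsf12a, which encodes Fn14, the receptor of TWEAK, was the most abundant receptor in culture. It lies on chromosome 17 from 23675445 to 23677468. Its levels were 710, 426 and 443 CPM in culture against 215, 302 and 195 CPM in the tumour libraries. No values overlapped, and it fell by 1.14 (SE 0.26, limma adjusted p = 0.00822), while the gene of its ligand, Tnfsf12, rose from 4 cultured reads in all. For this receptor tumour library 2 was the highest of its group, the reverse of its place for Tnf and Tnfrsf1b.

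Of the 9 intracellular members, 5 fell and 1 rose. Traf1, a TRAF without a ring finger that is itself a target of NF-kB, stood at 438, 205 and 114 CPM in culture against 94.8, 80.8 and 98.4 CPM in the tumour libraries. The cultured libraries spread widely and the tumour libraries hardly at all, with a change of -1.25 (SE 0.43, limma adjusted p = 0.0442). Traf2, the adaptor through which both TNF receptors reach NF-kB, stood at 138, 97.6 and 52.3 CPM in culture against 42.0, 42.5 and 44.1 CPM in the tumour libraries, a change of -1.06 (SE 0.32, limma adjusted p = 0.0294). Traf3 holds the kinase NIK at a low level in resting cells. It stood at 260, 150 and 205 CPM in culture against 136, 129 and 129 CPM in the tumour libraries, a change of -0.60 (SE 0.21, limma adjusted p = 0.0455). Cultured library 1 was the highest library for each of these genes.

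Traf4, a TRAF of epithelial cells, stood at 168, 103 and 137 CPM in culture against 70.1, 105 and 64.8 CPM in the tumour libraries, so that cultured library 2 and tumour library 2 overlapped. Its change was -0.77 (SE 0.25, limma adjusted p = 0.0351). With 1 library left out, the fits called Traf1, Traf2 and Traf3 in 1 of 6 cases each and Traf4 in 2 of 6. The count of fallen intracellular members was 1 without cultured library 1, tumour library 1 or tumour library 3, 2 without tumour library 2, and 3 without cultured library 2 or 3. All 4 estimates stayed below 0 in these fits. Without cultured library 1 the changes were -0.75 for Traf1, -0.74 for Traf2, -0.41 for Traf3 and -0.60 for Traf4. Traip encodes a ubiquitin ligase named for binding TRAFs and known for its part in DNA replication. It stood at 18.1, 23.7 and 33.1 CPM in culture against 6.43, 9.62 and 8.70 CPM in the tumour libraries. The change of -1.57 (SE 0.28, limma adjusted p = 0.00265) was called in all 6 of these fits.

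Traf5, an adaptor of lymphocyte receptors such as CD27 and CD40, was the intracellular member that rose. It had 115, 111 and 53 reads in culture against 289, 369 and 329 in the tumour libraries, a change of 1.97 (SE 0.30, limma adjusted p = 0.00108). No values overlapped, and it was called in all 6 fits with a library left out, but not after quantile normalization, where its change was 0.65 (limma adjusted p = 0.0522). Traf6 serves Toll-like and interleukin-1 receptors and RANK. Its change was 0.32 (95% interval -0.23 to 0.87). Traf7, a divergent TRAF, stood at 135, 102 and 277 CPM in culture against 147, 159 and 154 CPM in the tumour libraries, a change of -0.03 (-0.81 to 0.75). Tradd encodes the adaptor of the death domain of TNFR1. It stood at 18.3, 15.4 and 20.4 CPM in culture against 25.7, 25.7 and 23.6 CPM in the tumour libraries. Its change was 0.48 (0.06 to 0.90, limma adjusted p = 0.0587). These 3 did not pass, which does not show that they were equal between the groups. Without cultured library 3 the change of Tradd was 0.58 (limma adjusted p = 0.0183).

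**Figure D3:**
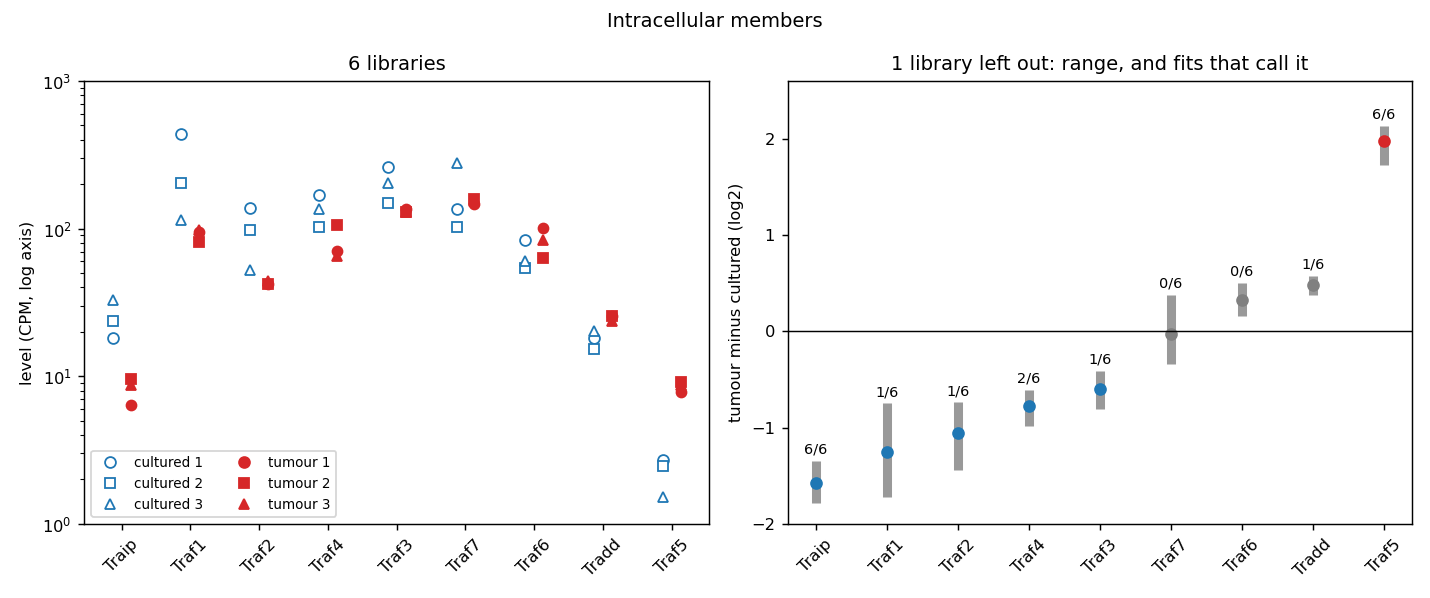
Left, level of the 9 intracellular members in each library (y axis, CPM on a log axis; open blue cultured, filled red tumour). Right, the log2 difference with all libraries (points; blue lower, red higher, grey not passed), its range over the 6 fits that leave out 1 library (grey bars) and the number of those fits that called it; Traip and Traf5 were called in 6 of 6 and Traf1, Traf2 and Traf3 in 1 of 6.

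Single libraries stood apart for the members. Tumour library 2 was the lowest tumour library for 23 of 39 members (8 of 12 ligands and 12 of 18 receptors), against 39.2% of all genes. Relative to the mean of the other tumour libraries it was at -1.67 log2 for Tnfrsf26, -1.46 for Tnf, -1.44 for Tnfsf14 and -1.16 for Tnfrsf1b, and at 0.56 for Tnfrsf12a and 0.64 for Traf4. Neutrophil markers other than Mmp9 summed to 499.6 CPM in the same library, against 4002 and 1970.1 CPM in tumour libraries 1 and 3. Macrophage markers summed to 7886 CPM in it, against 10925 and 11505 CPM. Dendritic cell, fibroblast, endothelial, and T and NK cell markers were also lowest there of the tumour libraries, and epithelial markers were highest. Without tumour library 2 the change of Tnf was 9.97. Tumour library 1 was the highest tumour library for 20 of 39 members, against 30.5% of all genes. In culture, library 2 was the lowest for 18 members (34.3% of all genes) and library 3 the highest for 17 (40.5%). Cultured library 1 was the highest cultured library for 18 of 39 members, against 27.7% of all genes. It stood above the mean of cultured libraries 2 and 3 by 3.03 log2 for Tnf, 2.78 for Fas, 1.93 for Tnfsf15, 1.52 for Traf1 and 0.95 for Traf2. Macrophage markers summed to 36.0, 38.7 and 28.1 CPM in cultured libraries 1, 2 and 3. Cd14, Cd68 and Mrc1 made up most of these sums, which therefore say little about the other markers. Neutrophil markers other than Mmp9 summed to 0.610, 0.133 and 0.345 CPM in cultured libraries 1, 2 and 3. Whether either bears on the levels of cultured library 1 was not tested.

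**Figure D4:**
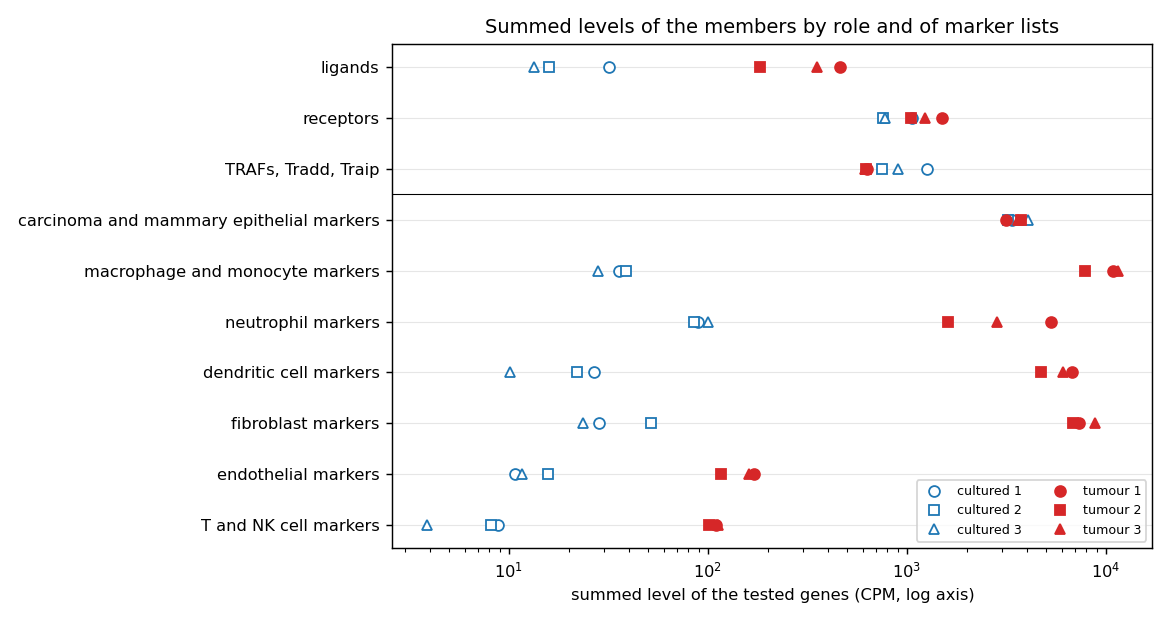
Summed level of the tested genes (x axis, CPM on a log axis) for the members of each role (top) and for marker lists (bottom), with cultured libraries open blue and tumour libraries filled red. Summed ligands run from 13.3 to 31.8 CPM in culture and from 184 to 462 CPM in the tumour libraries. Tumour library 2 is the lowest tumour library in the ligand and receptor rows and in every host marker row shown. It is the highest in the epithelial marker row.

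Levels can be compared between genes per length of exon, as CPM per kilobase of the annotated exons. In culture Tnfrsf12a was far above all other members at 273 CPM per kilobase (range 221 to 367), followed by Traf4 at 41.4 (31.4 to 51.2), with Traf7, Traf1, Traf3 and Ltbr between 27.6 and 29.2 and overlapping in range. Among ligands in culture Tnfsf9 was at 4.55 (3.02 to 5.53) and Tnfsf15 at 3.85 (1.73 to 7.57), with overlapping ranges. In the tumour libraries Tnf was at 148 CPM per kilobase (67.4 to 218), Tnfrsf12a at 123 (101 to 156) and Tnfrsf1b at 112 (61.4 to 149), and the ranges of these 3 overlap. Tnfrsf1a followed at 58.8 (52.6 to 67.9). Among the other ligands, Tnfsf9 at 22.4 and Tnfsf14 at 9.90 came next. Tnfsf15 was the lowest but 1 of all members in the tumour libraries, at 0.436.

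Other genes of the pathway were taken from lists that the rule for members leaves out. Of 7 further family members tested, Cd40 and Relt rose and 5 did not pass. Cd40, a receptor of antigen-presenting cells, rose by 4.49 (SE 0.42, limma adjusted p = 7.28e-05), while the call of Relt, with a change of 0.65, was lost once each library was centred on its median, and also without cultured library 2 or any 1 of the tumour libraries. Of 27 adaptors and ubiquitin enzymes near the receptors, 10 rose and 5 fell. Tnip3, an inhibitor of NF-kB signalling, went from 1 cultured read to a ratio of 977 (95% counting interval 175 to 38641), and Traf3ip3, an adaptor of lymphoid cells, to 443 (79.2 to 17556), also over 1 cultured read. Trafd1, a feedback inhibitor that binds TRAF6, rose by 2.65 (SE 0.18). Edaradd, the adaptor of the ectodysplasin receptor, fell by 2.16 (SE 0.35), Cyld, a deubiquitinase that opposes TRAF signalling, fell by 0.98, and Siva1 by 0.63. With tumour library 1 or 3 left out, the count of risen genes of this list was 6. Fallen genes of the list numbered 3 without cultured library 1, 2 without tumour library 1 or 2, and 1 without tumour library 3.

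Kinases of the NF-kB and stress pathways were mostly not called, with 5 of 15 higher and 1 lower. Map2k6, which activates p38, had a change of 5.15 from 12 cultured reads, Map3k8, which acts between TNF receptors and ERK, one of 2.72 (SE 0.42) and Map3k1 one of 1.69 (SE 0.31). Map3k7, which encodes TAK1, fell by 0.48, a call that was lost without cultured library 1 or any 1 of the tumour libraries, while without cultured library 3 there were 3 fallen kinases. Death effectors went both ways, with 7 of 16 higher and 4 lower. Ripk3, the kinase of necroptosis, had 0 reads in all cultured libraries and 45.5 ± 10.2 CPM (SD, n = 3) in the tumour libraries, at least 1849-fold higher. Casp6, an executioner caspase, rose by 1.78 and Cflar, which encodes the caspase-8 inhibitor FLIP, by 1.44. Pgam5 fell by 1.24, Bid, which links death receptors to mitochondria, by 1.22 and Diablo by 0.51. The count of fallen death effectors was 2 without any 1 of the tumour libraries. Of 10 genes of shedding and trafficking, 6 rose and 4 did not pass. Timp3, an inhibitor of the TNF-shedding protease ADAM17, had a change of 10.04 from 6 cultured reads, and Litaf and Furin rose by 1.83 and 1.79. Shares called over all genes, given above, were 29.5% higher and 18.8% lower. Tnip3, Traf3ip3, Map2k6, Ripk3 and Timp3, counted as risen in their lists, had under 61 reads in culture. They stand in the table through their tumour reads, which favours a rise, so their changes are descriptions.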

How the data were processed

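Per the submitters' processing notes, reads were handled with HISAT, HTSeq and limma on the build mm10, and the sources used here give no versions, strand setting or filter. A single table was deposited by the authors, with log2 values of 13912 genes. Its values have the form of limma's voom transform with TMM library sizes: solving them for reads gave whole numbers (tolerance 0.01) in 100% of cells, summing to 35448588 to 41469090 reads per library. The smallest gene total was 61 reads. Replicates of a group differed by at least 8.76 times counting variance, so none was counted as a repeat deposit.

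Tumour and cultured libraries (3 each) were compared on the deposited log2 CPM with limma 3.58.1 in R 4.3.3, with a variance trend, two-sided, Benjamini-Hochberg threshold 0.05 over all genes; SE is moderated. The procedure was tested on simulated data. No gene with low reads was changed in them, and both groups were given the same scatter. Recovery of genes with few cultured reads was therefore not tested. Replicate numbers follow accession order and pair nothing. Fold bounds use a floor of 3 reads over the cultured group, and 95% counting intervals cover counting error only. Gene positions are from GENCODE M21 on GRCm38 and upstream sequences from RefSeq. Members and lists were chosen with earlier results of these data known. Values in every library are given for called members with a change of at least 2 (up to 8 per role and direction), for the 2 highest means per role and for members whose call an alternative changed; up to 3 called genes per direction are named per list. Alternatives were other scalings, a filter on low values, another pseudocount, library weights, voom weights on the recovered reads, other moderation, stricter thresholds and leaving out each library.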

Additional observations from a re-analysis of the deposited data

How the results depend on the processing

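Of 39 members, 21 kept their direction and side of the threshold under all 17 settings that tested them, and 23 did so apart from the stricter thresholds. The count of fallen members, 8, was 4 with no variance trend, 4 at an adjusted p under 0.01 and 2 when tested against a 1.5-fold change. For receptors, fallen counts were 4 after quantile normalization and 0 against 1.5-fold. For intracellular members, risen counts were 0 after quantile normalization and 2 with library weights, and fallen counts were 1 with no trend, 1 at 0.01 and 1 against 1.5-fold. In further family members, risen counts were 1 after median centring, quantile normalization or epithelial scaling, with no trend, at 0.01 and against 1.5-fold, and fallen counts were 2 after centring, 3 after quantile normalization, 2 after epithelial scaling and 1 with library weights. Adaptors had 6 risen after epithelial scaling, 6 at 0.01 and 5 against 1.5-fold, and 1 fallen at 0.01 or against 1.5-fold. Kinases had 3 risen against 1.5-fold, and 3 fallen after centring, 4 after epithelial scaling, 3 with library weights and 0 with no trend, at 0.01 or against 1.5-fold. Death effectors had 3 risen against 1.5-fold and 2 fallen with no trend, at 0.01 or against 1.5-fold. Stricter thresholds call fewer genes by construction; for the other settings the cause was not tested.

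With 1 library left out, risen and fallen members ranged from 21 to 25 and 4 to 6, receptors from 9 to 12 risen, and intracellular members from 1 to 2 risen and 1 to 3 fallen. The ranges were 1 to 2 risen and 0 to 1 fallen in further family members, 6 to 12 and 1 to 5 in adaptors, 4 to 5 and 0 to 3 in kinases, and 6 to 9 and 2 to 3 in death effectors. Estimates changed sign after quantile normalization for Tnfrsf18 (-1.89) and Tnfrsf4 (-2.71), with library weights for Tnfrsf22 (0.20) and Traf7 (0.17), and without cultured library 3. With 1 library left out, Tnfrsf22 ranged from -0.43 to 0.31 and Traf7 from -0.34 to 0.38. Tnfrsf4, Tnfrsf18 and Tnfsf18 had low read numbers, and their part in these changes was not tested. No paired analysis was possible because the groups share no label numbers.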
